A study of Mus musculus with 230 samples.

Results

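A set of 9 genes of the gp130 cytokine pathway were followed in mouse sensory neurons after sciatic nerve injury: the receptor chains Il6st (gp130), Lifr, Osmr, Cntfr and Il6ra, the kinases Jak1 and Jak2, the transcription factor Stat3 and the feedback inhibitor Socs3. They were chosen by name, all 9 were among the 53278 genes of the deposited count table, and 8 of the 9 had enough counts to be tested. The neurons came from the L4 and L5 dorsal root ganglia (DRG) of crosses between the C57BL/6 and CAST/Ei strains, and were picked by hand after enzymatic dissociation. RNA was measured in 18 low-input libraries, 3 from injured and 3 from intact neurons at each of 3 ages (1, 8 and 12 months), and in 69 single neurons, of which 21 injured and 18 intact were from 1 month and 22 injured and 8 intact from 1 year. The time between injury and collection, the number of animals and the number of neurons per low-input library are not given in the sources used here, nor whether intact neurons came from uninjured animals or from the uninjured side. Whether replicate libraries came from separate animals is not stated either, so the p-values below measure only the spread between these libraries.

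The pathway carries signals of the interleukin-6 (IL-6) family of cytokines. A cytokine brings Il6st together with a second chain: Lifr for leukaemia inhibitory factor (LIF), Osmr for oncostatin M, Lifr with Cntfr for ciliary neurotrophic factor (CNTF), and Il6ra for IL-6 itself. The receptor activates the kinases Jak1 and Jak2, these phosphorylate Stat3, and Stat3 enters the nucleus and switches on target genes. One of those targets is Socs3, whose protein binds gp130 and JAK and shuts the signal off. In injured peripheral nerve these cytokines come largely from Schwann cells and macrophages, and Stat3 in the sensory neuron is a known factor in axon regrowth. Phosphorylation, the step that carries the signal, is not seen in RNA.

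The 18 low-input libraries held 7531970 to 19443600 endogenous counts, but a single feature, CT010467.1, took 29.4% to 59.7% of them in injured and 40.4% to 93.8% in intact libraries. All 13 sensory neuron markers had counts in every library. The summed level of 6 satellite glia markers ran from 114 to 1959 CPM (a gene's counts scaled to a common library total; median 664) in injured and from 43.9 to 695 (median 117) in intact libraries, and that of 6 Schwann cell markers from 348 to 586 and from 206 to 865. Of 8 immune markers, Aif1, Cd68, Cx3cr1, Ptprc and C1qa were at 0 in 9 or more of the libraries. The 6 fibroblast markers summed to 18.6 to 63.7 CPM (median 35.3) in injured and 0 to 74.1 (median 7.21) in intact libraries. Only intact 12-month replicate 2, at 74.1 CPM, reached into the injured range, so the fibroblast sums were apart at 1 and 8 months. Satellite glia sums at 1 month were 1247 to 1959 CPM in injured and 96.8 to 590 in intact libraries, and Schwann cell sums 348 to 406 and 231 to 340. At 8 and 12 months the satellite glia and Schwann cell sums overlapped. Of the 5 fibroblast markers tested 1, Col1a2, was called higher in the average over ages (log2 change 3.93, adjusted p = 0.0254 by edgeR). The part of other cells in the results below was not tested, and a change in the RNA of each neuron and a change in the mix of cells cannot be told apart in these libraries. Intact 12-month replicate 2 stood apart, with 93.8% of its counts in that one feature, 770328 counts outside it and 40.5% of those mitochondrial. Intact 12-month replicate 3 was next, with 80.9% of its counts in that feature and 1789183 outside it. The 12-month libraries had 0 counts of Y-linked genes and 5 of the 6 had Xist counts, whereas the other 12 had Y-linked counts and no Xist, so at 12 months age and sex cannot be told apart.

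Per kilobase of exon, the only scale on which genes are compared with each other here, the most abundant of the 9 was Jak1, with 27.6 ± 13.5 CPM per kb (mean ± SD, n = 18 libraries). Lifr followed with 22.9 ± 9.64, Il6st with 18.3 ± 13.2 and Stat3 with 15.4 ± 6.10, and these 4 overlapped within 1 SD. Cntfr had 3.59 ± 2.15 and Socs3 3.23 ± 2.56 CPM per kb. Jak2 had 0.522 CPM per kb, Osmr 0.445 and Il6ra 0.0165. The chains of the LIF receptor, the kinase Jak1 and Stat3 were thus the abundant transcripts, and the IL-6 binding chain was nearly absent.

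**Figure D1:**
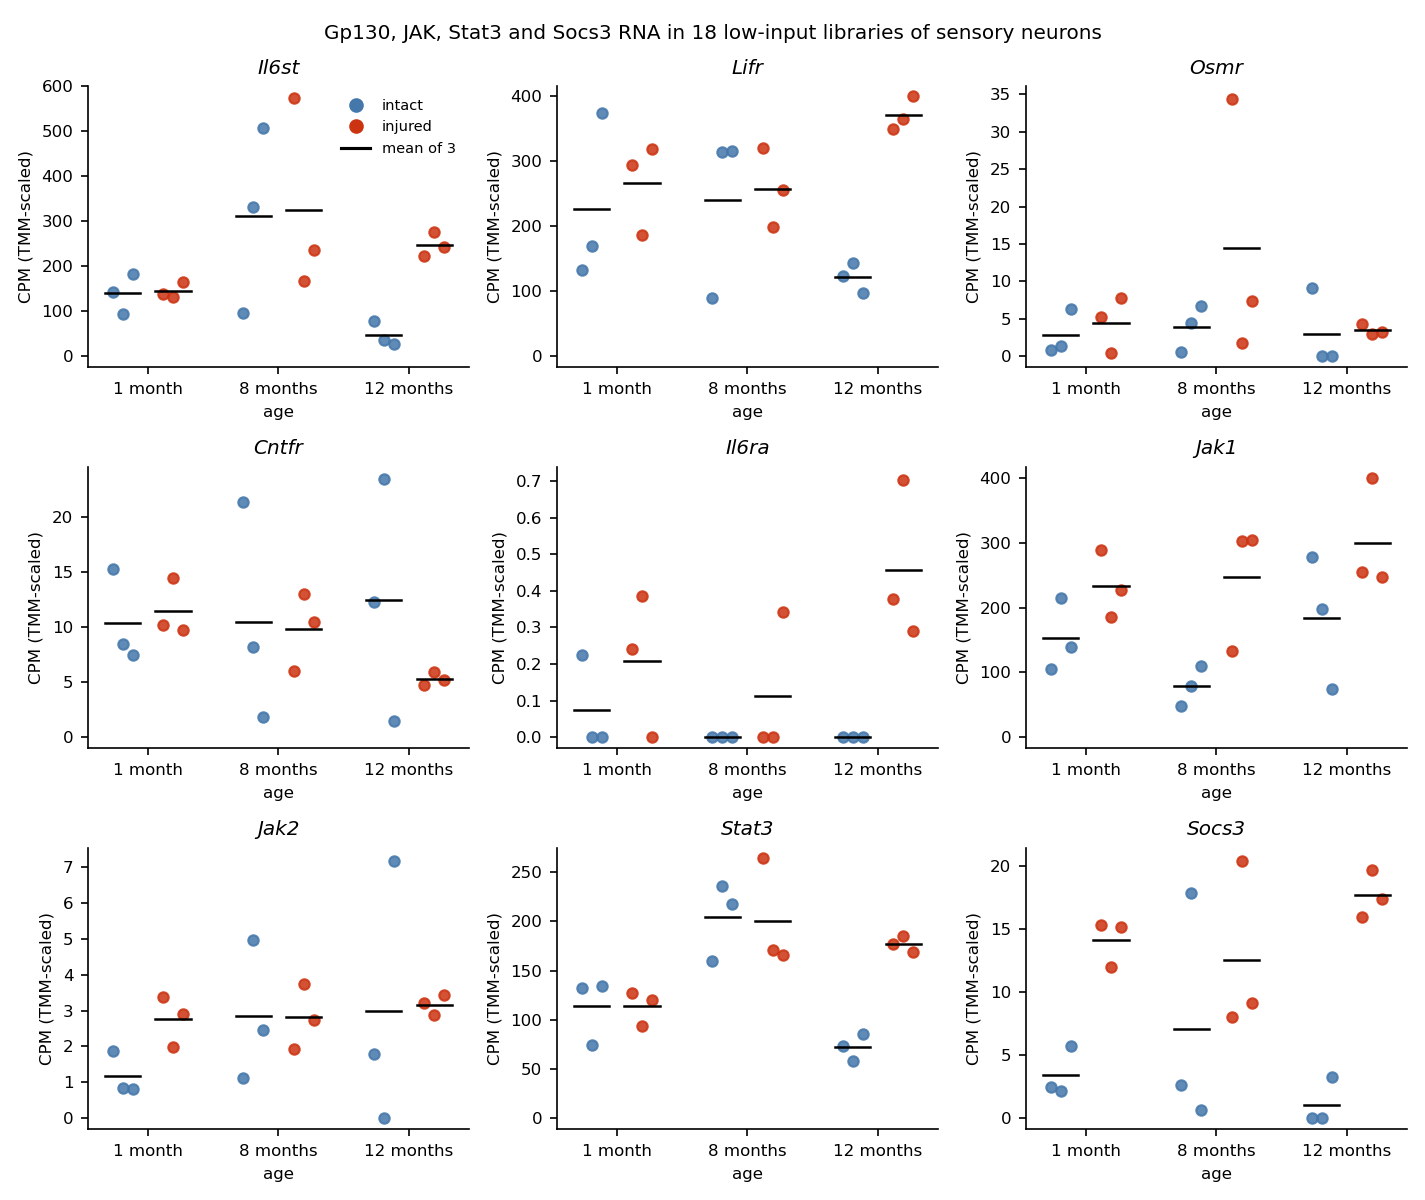
Levels of the 9 genes in each low-input library, in CPM after scaling (vertical axes, each from 0), at the 3 ages (horizontal axes), for intact (blue) and injured (red) neurons; black lines are means of 3 libraries. Every injured library was above every intact one for Socs3 and Jak2 at 1 month and for Jak1 at 8 months. At 12 months this held for Il6st, Lifr, Il6ra, Stat3 and Socs3. Of all genes tested, 10.5%, 9.39% and 19.2% were apart in this direction at 1, 8 and 12 months.

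RNA of the cytokines Il6, Lif, Clcf1, Ctf1, Osm and Cntf was scarce in the low-input libraries, and none of them passed the filter on low counts. Il6 had 29 counts in injured and 3 in intact libraries, Lif 12 and 1, Clcf1 26 and 0, Ctf1 12 and 19, and Osm 6 and 0. Cntf had no count in any of the 18 libraries. Clcf1 had a count in 6 of 9 injured libraries. With the 3 ages pooled, the injured level of Clcf1 was 7.19-fold a floor of 3 counts over the intact libraries. That ratio leaves out counting error in the injured counts and the spread between libraries. By age, Clcf1 had 0 counts in both groups at 1 month, and the ratio was 3.12-fold at 8 months and 1.68-fold at 12 months.

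Il6st lies on chromosome 13 (GRCm38, 112464070 to 112510086, plus strand) and encodes gp130, the chain shared by the family. In intact neurons its level was 143, 94.2 and 183 CPM at 1 month, then 96.5, 332 and 506 in the 8-month and 79.01, 36.1 and 27.4 in the 12-month libraries. In injured neurons it was 138, 131 and 164 CPM at 1 month, then 573, 167 and 236 in the 8-month and 223, 276 and 242 in the 12-month libraries. The groups overlapped at 1 and 8 months, where 1 library of each 8-month group lay far from the other two, and did not overlap at 12 months. Il6st rose 5.11-fold at 12 months (log2 change 2.35 ± 0.560, SE; adjusted p = 0.0335 by edgeR's quasi-likelihood test with Benjamini-Hochberg adjustment over 14212 genes, used for every adjusted p below), against log2 changes of 0.04 ± 0.527 at 1 month and 0.06 ± 0.527 at 8 months. Averaged over the ages the log2 change was 0.82 ± 0.308 (adjusted p = 0.131). The 12-month call was lost without intact replicate 2 (adjusted p = 0.0588) or 3 (0.105), without any of the injured 12-month replicates (0.0784 to 0.102) and without injured 1-month replicate 3 (0.0502), at log2 changes of 2.06 to 2.43. It was also lost with the CT010467.1 share as a covariate (3.12, adjusted p = 0.560), with a replicate block (2.51, adjusted p = 0.145) and in a fit of the 12-month libraries alone.

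Lifr, on chromosome 15 (7090614 to 7197489, plus strand), encodes the chain that pairs with gp130 for LIF. Intact libraries held 133, 169 and 374 CPM at 1 month, then 89.4, 313 and 314 in the 8-month and 124, 143 and 96.9 in the 12-month libraries. Injured libraries held 294, 186 and 318, then 319, 198 and 255, then 349, 364 and 399 CPM. As for Il6st, the groups overlapped at the younger ages and were apart at 12 months, where every injured library was above every intact one. The Lifr log2 change was 1.62 ± 0.447 at 12 months (adjusted p = 0.0607) and 0.66 ± 0.252 over the ages (adjusted p = 0.141), so neither was called. Leaving out 1 intact library brought the 12-month value below the threshold for 3 libraries, namely 12-month replicate 2 (adjusted p = 0.0494), 1-month replicate 3 (0.0456, and 0.0479 for the average over ages) and 8-month replicate 1 (0.0212).

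The other 3 chains were scarce. Osmr (chromosome 15, 6813577 to 6874969, minus strand), the chain for oncostatin M, ranged from 0 to 9.07 CPM in intact libraries (median 1.44) and from 0.449 to 34.4 in injured ones (median 4.33). One injured 8-month library held 34.4 CPM against 1.81 and 7.37 in the other two, and 2 of the 3 intact 12-month libraries held none, so the ranges overlapped at every age. The Osmr log2 change was 0.78 ± 0.732 (adjusted p = 0.602), and without that injured 8-month library, replicate 1, the 8-month log2 change went from 1.88 to 0.22. The Osmr average was 0.24 without that library, 1.21 without intact 1-month replicate 3 and 3.68 without intact 12-month replicate 1. Cntfr (chromosome 4, 41657498 to 41697089, minus strand), the CNTF-binding chain, ranged from 1.52 to 23.5 CPM in intact and from 4.71 to 14.5 CPM in injured libraries. The injured libraries lay inside the intact range, with a log2 change of -0.33 ± 0.427 (adjusted p = 0.728). Il6ra (chromosome 3, 89864059 to 89913196, minus strand), the IL-6 binding chain, had 40 counts in all 18 libraries together and was not tested. Its counts were 37 in 6 of 9 injured libraries and 3 in 1 of 9 intact libraries. At 12 months it had 22 counts in the 3 injured libraries and 0 in the intact ones, which held fewer counts in all. The injured level was 2.64-fold that of the intact group set to 3 counts in all, with counting error in the injured counts left out.

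Of the kinases, Jak1 was called in the average over ages and Jak2 was not, and the difference between them was not tested. Jak1 (chromosome 4, 101152367 to 101265282, minus strand), a main gp130-bound kinase, stood at 104.9, 215 and 139 CPM in intact and 289, 186 and 227 CPM in injured neurons at 1 month. In 8-month libraries it was 48.5, 78.8 and 109 CPM in intact and 134, 303 and 305 CPM in injured neurons, and at 12 months 278, 199 and 74.3 against 255, 400 and 247. Only the 8-month groups did not overlap. Jak1 rose 1.99-fold over the ages (log2 change 0.99 ± 0.264, adjusted p = 0.0320), with log2 changes of 0.61 ± 0.453, 1.65 ± 0.463 and 0.71 ± 0.456 at 1, 8 and 12 months (adjusted p = 1, 0.111 and 0.429). The average lost its call in 10 of 26 alternative fits, among them 7 that left out 1 library (injured 1-month replicate 1 or 3, 8-month replicate 2 or 3, 12-month replicate 2, or intact 1-month replicate 1 or 3; adjusted p 0.0550 to 0.0765). With the share of CT010467.1 as a covariate it was 0.31 (adjusted p = 0.918), with a replicate block 1.05 (adjusted p = 0.0511), and over 1 and 8 months only 1.13 (adjusted p = 0.0927).

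Jak2 (chromosome 19, 29251828 to 29313080, plus strand) was far lower, at 0 to 7.17 CPM in intact (median 1.80) and 1.94 to 3.75 CPM in injured libraries (median 2.92). At 1 month the injured libraries (3.39, 1.99 and 2.92 CPM) were above the intact ones (1.87, 0.855 and 0.807 CPM). At 8 and 12 months they overlapped. The log2 change of Jak2 was 0.36 ± 0.421 over the ages (adjusted p = 0.689) and 1.24 ± 0.733 at 1 month (adjusted p = 1), and the average ran from 0.23 to 0.80 when 1 library was left out.

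Stat3 (chromosome 11, 100885098 to 100939540, minus strand) is the factor that the kinases phosphorylate. Intact neurons held 132, 74.7 and 134 CPM at 1 month, then 160, 236 and 218 in the 8-month and 72.9, 57.8 and 85.6 in the 12-month libraries. Injured neurons held 127, 93.8 and 120 CPM at 1 month, then 264, 171 and 166 in the 8-month and 177, 185 and 169 in the 12-month libraries. At 1 and 8 months injured and intact libraries overlapped, and at 12 months every injured library was above every intact one. Stat3 rose 2.43-fold at 12 months (log2 change 1.28 ± 0.294, adjusted p = 0.0285), against 0.00 ± 0.286 at 1 month and -0.03 ± 0.286 at 8 months. The average over ages was 0.42 ± 0.166 (adjusted p = 0.154). The 12-month call held without any single intact 12-month library, replicate 2 included, where Stat3 rested on 32 counts, and was lost without any one of the injured 12-month libraries (adjusted p 0.0779 to 0.0999), with the CT010467.1 share as a covariate (2.12, adjusted p = 0.517), with a replicate block (1.304, adjusted p = 0.140) and in a fit of the 12-month libraries alone. Exons of Stat3 share 72 bp with the opposite-strand gene Stat5a, which is 0.756% of the Stat3 exon length.

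Socs3 (chromosome 11, 117966079 to 117970047, minus strand), the feedback inhibitor, had the largest fold over the ages among the 8 tested genes. At 1 month it was 2.47, 2.15 and 5.71 CPM in intact and 15.3, 12.0 and 15.2 CPM in injured neurons. At 8 months it was 2.68, 17.8 and 0.657 in intact and 8.05, 20.4 and 9.15 in injured neurons, and at 12 months 0, 0 and 3.26 against 15.9, 19.7 and 17.4 CPM. The 9 injured libraries lay between 8.05 and 20.4 CPM, and 8 of the 9 intact libraries lay below all of them; the exception was intact 8-month replicate 2. Socs3 rose 4.68-fold over the ages (log2 change 2.23 ± 0.605, adjusted p = 0.0373), with 2.04 ± 0.977 at 1 month (adjusted p = 1), 0.84 ± 0.9503 at 8 months (0.833) and 3.81 ± 1.21 at 12 months (0.100). The call over the ages was lost in 12 of 26 alternative fits: with the CT010467.1 share as a covariate (3.35, adjusted p = 0.647), over 1 and 8 months only (1.44, adjusted p = 0.425), and without 10 libraries in turn (each injured library but 8-month replicate 1, and intact 1-month replicates 1 and 2; adjusted p 0.0550 to 0.0799). Without intact 12-month replicate 3, which leaves that group with no Socs3 count, the average was 4.60 and the 12-month value 10.9 (adjusted p = 0.0287), both set by the prior count and not bounds. The 8-month value was 0.30 without injured 8-month replicate 2 or intact 8-month replicate 3, 0.45 without intact 8-month replicate 1 and 2.93 without intact 8-month replicate 2. The 12-month value also passed without intact 8-month replicate 2 (adjusted p = 0.0447) or 3 (0.0493). By DESeq2 the 12-month log2 change of Socs3 was 3.71 (adjusted p = 0.0119). By edgeR it was 3.85 with no filter on low counts (adjusted p = 1.94e-06) and 9.58 with ERCC spike-in scaling (3.38e-05). In that order, these fits called 9.28%, 3.29% and 96.2% of all genes at 12 months.

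Because Socs3 is a known target of Stat3, a stretch of 165 bases upstream of its RefSeq start is shown, from the RefSeq table of GRCm38.p6, at chr11:117969452-117969616, minus strand, read 5′ to 3′. The annotation of the count table starts Socs3 at 117970047, 681 bases upstream of the RefSeq start, so in it this stretch lies inside the gene, and it is printed as far as the exon at 117969375 to 117969451. Capitals mark the match to TTCNNNGAA, the palindromic core bound by STAT dimers, which reads the same on both strands.

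Socs3: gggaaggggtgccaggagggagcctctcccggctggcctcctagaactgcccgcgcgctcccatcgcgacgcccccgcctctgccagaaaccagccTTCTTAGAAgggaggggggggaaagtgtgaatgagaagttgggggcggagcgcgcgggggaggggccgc

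The match, TTCTTAGAA, starts 154 bases before the RefSeq start. In windows of 300 bases (250 before and 50 after each start), TTCNNNGAA was found in 8.30% of 32851 promoter windows and in at least 1 window of 9.55% of 27025 genes. Among the 9 genes, which have 15 windows in the table, Socs3 was the only one with a match. The same half-sites with 1 more base between them were found in 6.95% of all windows and in none of the 15. The letters say nothing about binding in these neurons.

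**Figure D2:**
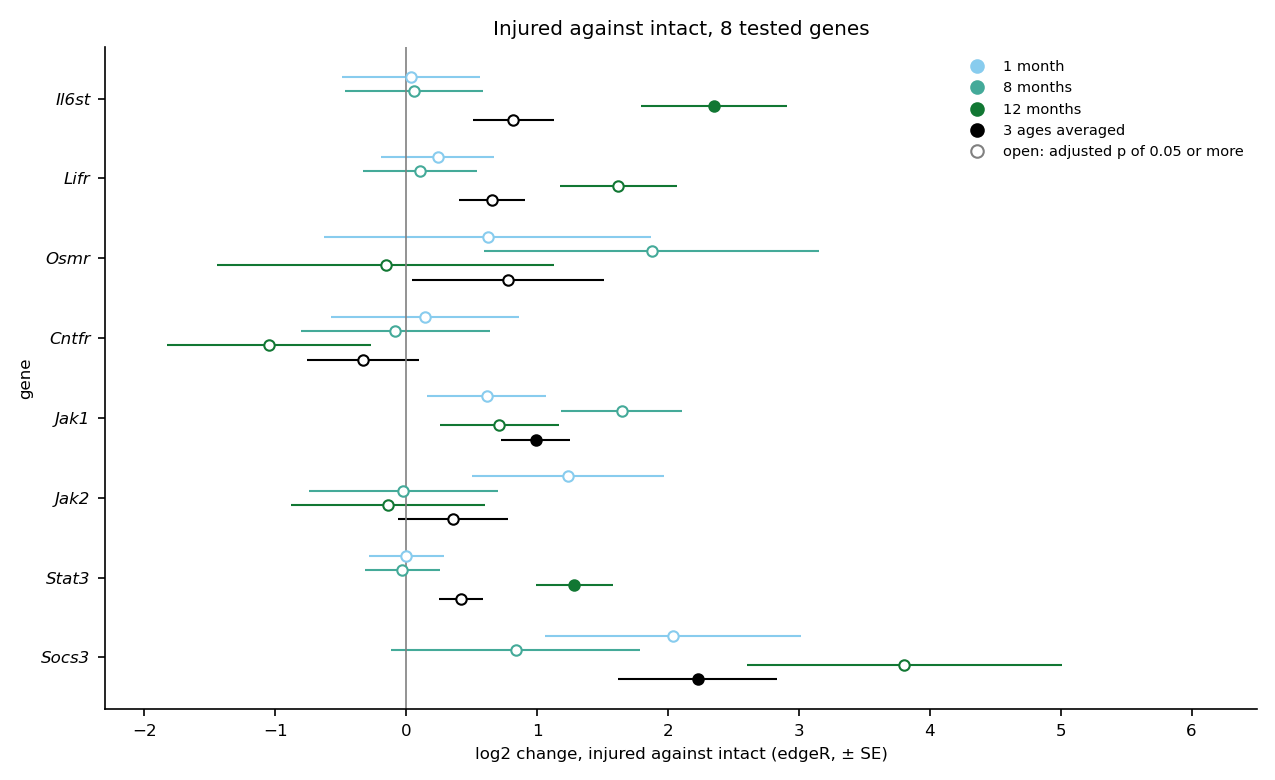
Fitted log2 change (horizontal axis, ± SE) of injured against intact neurons for the 8 tested genes (vertical axis), at each age and averaged over ages. Filled points have an adjusted p below 0.05: Socs3 (2.23) and Jak1 (0.99) in the average, Il6st (2.35) and Stat3 (1.28) at 12 months.

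Counted together, 2 of the 8 tested genes were called higher and 0 lower in the average over ages, where 6.18% of the 14212 genes tested were called, 5.11% as higher and 1.07% as lower, and 20.3% had an unadjusted p below 0.05 (5 of the 8 genes). Over 1 and 8 months only, 0 of 8 were called (1.96% of all genes). The median log2 change of the 8 was 0.72, beside 0.03 for all genes tested. At 1 month 0 of 8 were called (all genes: 0.232%; 0 of the 8 had an unadjusted p below 0.05, against 4.5% of all genes) and at 8 months 0 of 8 (all genes: 0.957%, 0.915% as higher and 0.0422% as lower; 1 unadjusted, against 12.2%). DESeq2 called 0 of them at 1 month (0.868% of all genes) and 1, Jak1, at 8 months (3.76%). At 12 months 2 of 8 were called higher, where 2.99% of all genes were called, 2.19% as higher and 0.802% as lower, 4 of 8 passed without adjustment (18.6% of all genes), and the median of the 8 was 1.00 beside 0.08. Genes with every injured library above every intact one made up 10.5% of all genes at 1 month, 9.39% at 8 months and 19.2% at 12 months, and genes with every injured library below every intact one made up 7.28%, 4.92% and 6.68%. Of the 9 genes Socs3 and Jak2 at 1 month, Jak1 at 8 months, and Il6st, Lifr, Il6ra, Stat3 and Socs3 at 12 months were higher, and none was lower at any age. None of the 9 was apart at all 3 ages, whereas 1.83% of all genes were higher and 0.12% lower at all of them. The 3 ages share no libraries, so these are separate comparisons.

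Whether the response to injury differed with age was tested directly, by the joint interaction over the 3 ages. None of the 8 genes was called (all genes tested: 0%). The unadjusted p was 0.0071 for Stat3 (adjusted 0.409), 0.0103 for Il6st (adjusted 0.438) and 0.0477 for Lifr (adjusted 0.599), and 3 of the 8 genes thus had an unadjusted p below 0.05, beside 8.17% of all genes. For these 3 genes the 12-month difference therefore was not shown by this test to differ from the younger ages. By DESeq2, 207 of 13266 genes had an interaction, with 0 of the 8 among them. With no filter on low counts, edgeR called Il6st alone of the 8 (adjusted p = 0.00248), where 1.35% of all genes were called.

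Levels also differed between ages among intact neurons alone. Of the 8 genes, 2 were called (4.17% of all genes): Stat3 (adjusted p = 0.0233) and Il6st (adjusted p = 0.0289). With Jak1 (unadjusted p = 0.0473, adjusted 0.216), 3 of 8 had an unadjusted p below 0.05, against 22.6% of all genes. Stat3 in intact neurons was lowest at 12 months (72.1 ± 13.9 CPM, SD, n = 3), then 1 month (114 ± 33.9) and highest at 8 months (204 ± 39.997). Il6st had the same order, 47.5 ± 27.6, 140 ± 44.7 and 312 ± 206 CPM, where the 1- and 8-month libraries overlapped. The Stat3 call was lost without intact 8-month replicate 2 (adjusted p = 0.0670), and that of Il6st without 8-month replicate 2 (0.0706) or 3 (0.0610) or without 12-month replicate 3 (0.0715). Both calls were lost in a fit of the intact libraries alone (adjusted p = 0.340 for Stat3 and 0.2997 for Il6st), where 0.0394% of all genes were called. In injured neurons 0 of 8 were called across the ages (0.218% of all genes; adjusted p = 0.9995 for all 8, with an unadjusted p of 0.0317 for Stat3). Injured Stat3 ran from 114 ± 17.7 at 1 month through 177 ± 8.00 at 12 months to 200 ± 55.4 CPM at 8 months, and the 8- and 12-month libraries overlapped. The sex difference named above falls between the 12-month libraries and the others.

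The genes around the pathway were taken from a list of 55, of which 40 were tested and 3 were called, all higher in injured neurons over the ages (adjusted p below 0.05; 5.11% of all genes). Of the 40, 13 had an unadjusted p below 0.05, where 20.3% of all genes did, and the median log2 change was 0.40 beside 0.03. Among 3 other receptor chains, Il31ra, which joins with Osmr to form the itch cytokine IL-31's receptor, rose: it had 0.108 to 5.42 CPM in intact and 0.641 to 56.9 CPM in injured libraries (medians 1.03 and 7.57; log2 change 3.04 ± 0.608, adjusted p = 0.00581). The 2 groups of Il31ra overlapped at 8 months and were apart at 1 and 12 months. The Il31ra call was lost with limma-voom (adjusted p = 0.147), the CT010467.1 covariate (0.582), a replicate block (0.0599) and 1 and 8 months only (0.0671). Il11ra1, the interleukin-11 chain, was similar in level (medians 5.08 CPM in intact and 4.23 in injured libraries; log2 change -0.25 ± 0.521, adjusted p = 0.845).

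No other kinase or STAT gene passed (0 of 7 tested). Of the inhibitors and phosphatases, 0 of 14 passed and 6 had an unadjusted p below 0.05, again beside 20.3% of all genes. Those nearest the threshold were Cish, another cytokine-induced SOCS protein (log2 change 1.17 ± 0.403, adjusted p = 0.0961), and Ptpn11, the SHP2 phosphatase that binds gp130 (-0.52 ± 0.179, adjusted p = 0.0968). Of the other SOCS genes, Socs7 stood at -0.55 ± 0.232 (adjusted p = 0.181), Socs5 at -0.59 ± 0.269 (0.229), Socs1 at 1.26 ± 0.830 (0.426) and Socs2 at 0.37 ± 0.346 (0.600). Of 4 adaptors none passed, with Grb2 nearest at 0.48 ± 0.159 (adjusted p = 0.0879).

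Among genes known as Stat3 targets, 2 of 11 tested passed, both higher, beside 5.11% of all genes. Gal, the neuropeptide galanin that rises in cut sensory neurons, had 112 to 930 CPM in injured libraries and 0 to 10.7 CPM in intact ones. At every age each injured library of Gal was above each intact one. At 12 months Gal had 28745 counts in injured and 0 in intact libraries, at least 3450-fold higher when the intact group is set to 3 counts in all. The fitted log2 change over the ages was 9.87 ± 0.883 (adjusted p = 2.8e-05), a value that depends on the prior count. Vim, the intermediate filament vimentin, had 44.2 to 84.6 CPM in injured and 4.53 to 50.6 CPM in intact libraries (log2 change 1.95 ± 0.326, adjusted p = 0.00158). Only intact 12-month replicate 2, with 28 Vim counts, reached into the injured range, and the Vim call was lost with the CT010467.1 covariate (2.595, adjusted p = 0.349). Vim is also made by glia and fibroblasts, whose marker levels are given above, and their part in its change was not tested. Cebpd (1.43 ± 0.651, adjusted p = 0.227), Pim1 (0.87 ± 0.346, 0.158), Junb (0.36 ± 0.313, 0.569) and Mcl1 (0.41 ± 0.230, 0.343) did not pass, and neither did Bcl2l1 (-0.43 ± 0.168, 0.150) and Bcl3 (-0.94 ± 0.826, 0.571). Vip, Reg3b, Timp1 and Lrg1 were not tested for want of counts.

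**Figure D3:**
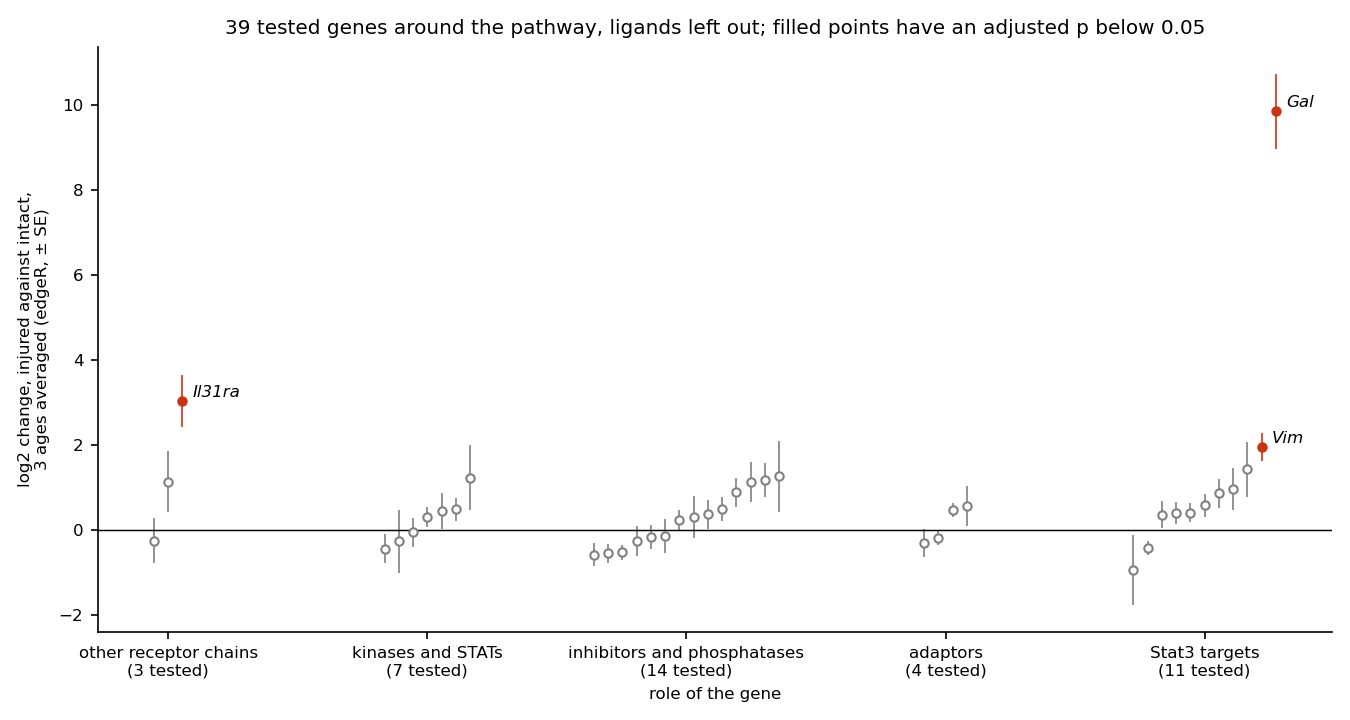
Fitted log2 change over the 3 ages (vertical axis, ± SE) of the tested genes around the pathway other than ligands, by role (horizontal axis). The 3 filled points have an adjusted p below 0.05: Il31ra (3.04), Vim (1.95) and Gal (9.87).

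The genes whose levels were most like those of the members over the 18 low-input libraries (Pearson r of log2 CPM, over libraries that share groups, depth and the CT010467.1 share, as a description) were Acly (r = 0.932), Lss (0.930), Ap2a2 (0.924), Stat6 (0.918) and Tkt (0.903) for Stat3. For Il6st they were Acly (0.934), Kif3b (0.926), Ick (0.924), Mfn2 (0.914) and Zfp141 (0.912), and for Socs3 Slc1a4 (0.899), Zfp697 (0.892), Csf1 (0.883), Aspscr1 (0.882) and Fam171b (0.876). Acly, the enzyme that makes cytosolic acetyl-CoA, headed both the Stat3 and the Il6st list. Stat3 and Il6st themselves had r = 0.876 over the libraries and 0.620 after the 6 group means were taken out. Il6st and Lifr had 0.771 and 0.742, and Il6st and Osmr 0.795 and 0.796. Socs3 and Il6st had 0.485, and -0.306 after the group means were taken out.

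In single neurons each group counts as 1 sample, because no animal is named, and no test between groups was made. Of the 69 cells, 55 had at least 100000 counts outside CT010467.1 and were used: 17 injured and 12 intact at 1 month, and 18 injured and 8 intact at 1 year. CPM values of cells leave CT010467.1 and spike-ins out of the total. Depth differed, the median being 2504750 counts for 1-month injured cells, 1555860 for 1-month intact cells, 3917070 for 1-year injured cells and 7145020 for 1-year intact cells. The 1-month cells carried 4102140 and 7044320 ERCC spike-in counts on average and the 1-year cells 18.2 and 24.4, so the 2 ages of cells were not prepared alike and age and preparation cannot be told apart. The median cell of every group held all 13 neuron markers at 1 CPM or more. Satellite glia markers summed to medians of 161 and 213 CPM in injured and intact cells at 1 month and 1049 and 1431 at 1 year, and Schwann cell markers to 1358, 716, 1399 and 1250 CPM in the same order.

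The signalling core was present in nearly every neuron. Il6st reached 1 CPM in 52 of 55 cells (94.5%, exact 95% binomial interval 84.9% to 98.9%), and all 52 also had Lifr. The 3 cells without Lifr were shallow, with a median of 120424 counts. Il6st, Lifr, Jak1 and Stat3 were found together in 51 of 55 cells (92.7%, 82.4% to 98.0%). Cntfr joined Il6st and Lifr in 41 of 55 cells (74.5%, 60.997% to 85.3%), Osmr joined Il6st in 22 (40%, 27.02% to 54.1%), and Il6ra joined Il6st in 5 (9.09%, 3.02% to 19.95%). By group, Il6st with Osmr was in 5 of 17 injured (29.4%) and 3 of 12 intact cells (25%) at 1 month and in 10 of 18 (55.6%) and 4 of 8 (50%) at 1 year. Il6st with Il6ra was in 0 of 17 and 0 of 12, then in 2 of 18 (11.1%) and 3 of 8 (37.5%).

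**Figure D4:**
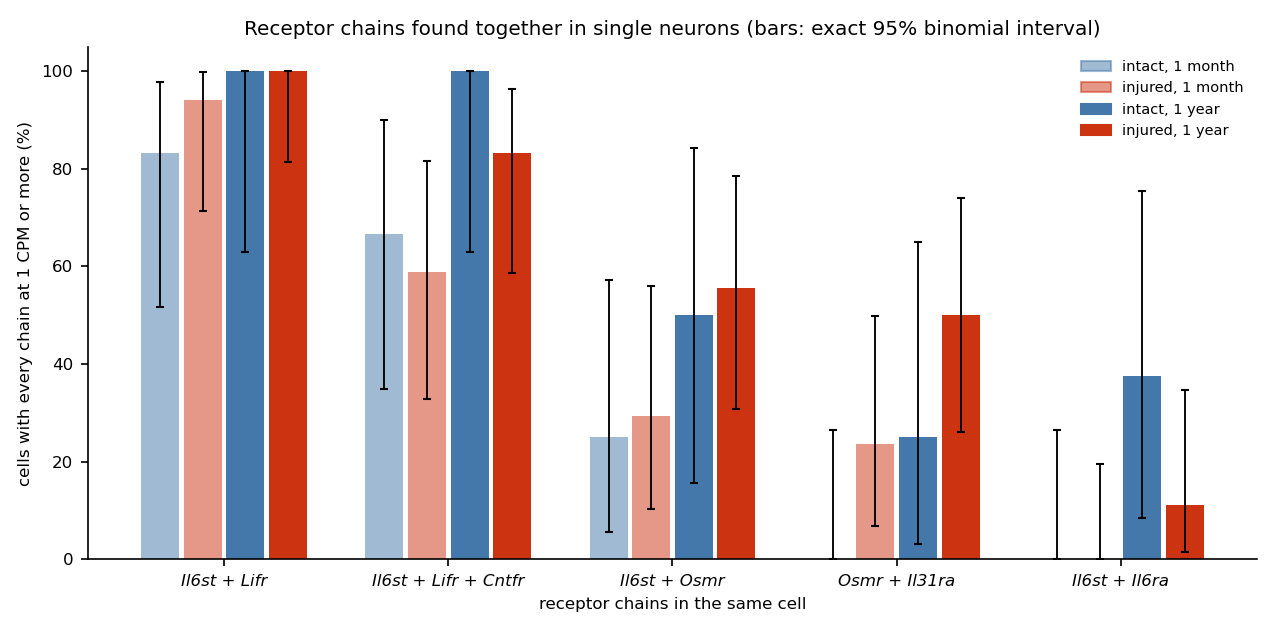
Share of single neurons (vertical axis, %) with at least 1 CPM of every named receptor chain (horizontal axis), for the 4 groups of cells; error bars are exact 95% binomial intervals that cover counting of cells only. Il6st with Lifr was in 83.3% to 100% of the cells of a group, Il6st with Il6ra in 0% to 37.5%.

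By group, Il6st had a lowest, median and highest level of 0, 142 and 1285 CPM in intact and 0, 224 and 753 CPM in injured cells at 1 month. At 1 year these were 114, 168 and 651 CPM in intact and 85.1, 476 and 2174 CPM in injured cells. Pooled over cells the 1-year level of Il6st was 661 CPM in injured (exact Poisson 95% interval 655 to 666, counting error only) and 250 CPM in intact cells (246 to 255), and the 1-month level 321 and 445 CPM. The higher pooled level of intact cells at 1 month owed 45.6% of its counts to 1 cell, and the medians have the other order. At both ages the ranges overlapped.

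Lifr medians were 370 CPM in intact and 687 in injured cells at 1 month, and 602 and 669 at 1 year, with pooled levels of 763, 774, 538 and 756 CPM in that order. Stat3 medians were 272 and 350 CPM at 1 month and 277 and 342 at 1 year, with pooled levels of 376, 446, 349 and 330 CPM, so at 1 year the medians and the pooled levels had opposite orders. Jak1 medians were 223 and 127 CPM at 1 month and 538 and 172 CPM at 1 year. Pooled levels of Jak1 were 355 and 399.6 CPM at 1 month and 572 and 418 CPM at 1 year, so at 1 month the order of intact and injured cells depended on the measure. At 1 year both measures of Jak1 were higher in intact cells, the opposite order to the low-input average over ages. Single Jak1 cells ranged from 0 to 1467 CPM in intact and from 0 to 1337 CPM in injured neurons, so the groups overlapped almost entirely. Jak2 was sparse, with at least 1 CPM in 7 of 12 intact and 8 of 17 injured cells at 1 month and in 6 of 8 and 10 of 18 at 1 year.

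Socs3 was found in most cells of every group. It reached 1 CPM in 10 of 12 intact (83.3%, 51.6% to 97.9%) and 12 of 17 injured cells (70.6%, 44.04% to 89.7%) at 1 month, and in 6 of 8 (75%, 34.9% to 96.8%) and 14 of 18 (77.8%, 52.4% to 93.6%) at 1 year. In the cells that had it, the median Socs3 level was 16.3 CPM in intact and 41.8 in injured cells at 1 month, and 24.5 and 30.3 at 1 year. Medians over all cells were 11.9 and 31.997 CPM at 1 month and 13.4 and 25.8 at 1 year, and the highest cell, an injured 1-year one, had 260 CPM. Pooled levels of Socs3 were closer at 1 month, 36.5 CPM in intact and 40.9 in injured cells, and were 17.6 and 46.7 at 1 year. The share of cells with Socs3 thus was not higher in injured groups at 1 month. The median level was higher there, the pooled level only slightly, and all ranges overlapped. All 42 cells with Socs3 also had Il6st, Lifr, Stat3 and the injury-induced factor Atf3. Of the 13 cells without Socs3, 10 had Il6st, 11 had Stat3 and 6 had Atf3, at a median depth of 1483020 against 4835730 counts. The share of cells with Atf3 at 1 CPM did not set injured cells apart. Atf3 was in 10 of 12 intact and 15 of 17 injured cells at 1 month, and in 7 of 8 and 16 of 18 at 1 year. Its 1-month level was higher in injured cells, with medians of 39.6 CPM in intact and 87.3 in injured cells and pooled levels of 71.8 and 807. A single injured cell held 49.4% of the 1-month injured counts. At 1 year the medians were 51.6 and 30.6 CPM and the pooled levels 62.5 and 80.6, in opposite orders. Sprr1a, a protein strongly induced in injured neurons, was at 1 CPM in 10 of the 42 cells with Socs3 and in 5 of the 13 without. By group, Sprr1a was in 1 of 12 intact and 11 of 17 injured cells at 1 month, and in 0 of 8 and 3 of 18 at 1 year.

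**Figure D5:**
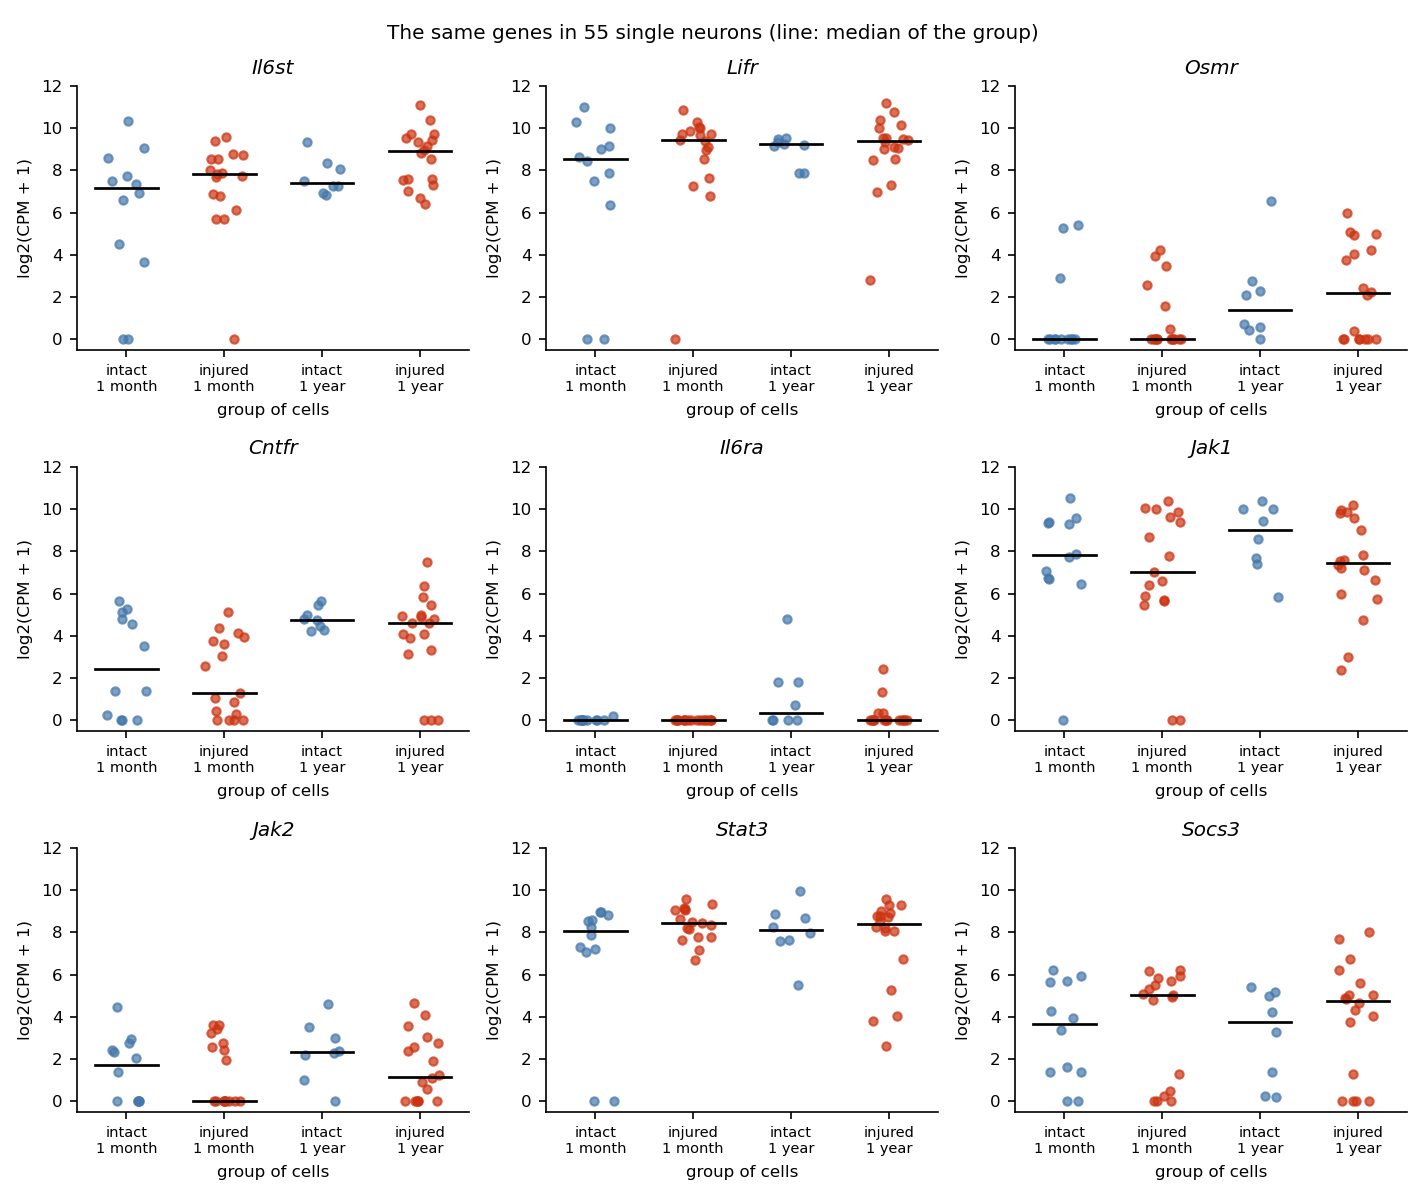
Level of the 9 genes in 55 single neurons, as log2(CPM + 1) (vertical axes), in the 4 groups of cells (horizontal axes); each point is a cell and the line is the median. Stat3, Lifr, Il6st and Jak1 were present in most cells of every group, and Osmr, Jak2 and Il6ra in a part of them.

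The scarce chains sorted among cells. Osmr was at 1 CPM or more in 3 of 12 intact and 5 of 17 injured cells at 1 month and in 4 of 8 and 10 of 18 cells at 1 year, and where present its median was 4.77 to 37.3 CPM by group. A single intact 1-year cell held 85.4% of its group's Osmr counts. Il31ra was in 15 of the 22 cells with Osmr (68.2%) and in 11 of the 33 without (33.3%), at median depths of 5616540 and 2504750 counts. By group Il31ra was in 1 of 12 intact and 10 of 17 injured cells at 1 month, and in 2 of 8 and 13 of 18 at 1 year. Sst and Nppb, peptides of the itch neuron class that is known to carry both IL-31 receptor chains, were in 5 and 1 of the 22 cells with Osmr and in 1 and 1 of the 33 without. Most cells with Osmr RNA in these data therefore lacked RNA of those peptides at 1 CPM.

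Cntfr had medians of 5.95 CPM in intact and 1.42 in injured cells at 1 month and of 26.1 and 23.2 CPM at 1 year, where all 8 intact cells had it, at 17.8 to 48.4 CPM. Il6ra was at 1 CPM in 0 of 12 intact and 0 of 17 injured cells at 1 month, which allows shares of up to 25% and 17.6% by a limit of 3 cells, or 26.5% and 19.5% as exact 95% upper bounds, and in 3 of 8 and 2 of 18 cells at 1 year. Of the ligands, Il6 was at 1 CPM in 3 of 17 injured and 1 of 12 intact cells at 1 month and in 2 of 18 and 1 of 8 at 1 year, with 39.5 CPM of Il6 in the highest cell. Clcf1 was at 1 CPM in 1 of 17 and 0 of 12 cells at 1 month and in 2 of 18 and 3 of 8 at 1 year, and 95.1% of the counts in the intact 1-year group came from 1 cell. Ctf1 was at 1 CPM in 4 of 17, 2 of 12, 4 of 18 and 2 of 8 cells in that order, with 125 CPM in the highest cell. Osm reached 1 CPM in 1 cell, Lif in 1 and Cntf in none of the 55.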

How the data were processed

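The 9 genes and the gene lists were chosen with earlier results of these data known. The authors deposited whole-number counts of reads per gene, made with featureCounts 1.5.2 on GENCODE vM16 (paired reads, exons summed by gene name, without strand), per the file headers, which also give the exon length used here per kilobase. Trim Galore, STAR and mm10 are named in the submitters' processing notes. Libraries were SMART-seq2 of picked neurons. The 94 methylation samples were not analysed here. Of 53278 genes, 14212 passed edgeR's filterByExpr in the 18 low-input libraries. edgeR 4.0.16 (TMM scaling, quasi-likelihood test, 6 group means, 12 residual degrees of freedom, adjusted p threshold 0.05) gave injured against intact at each age and averaged, the interaction and the ages. ERCC spike-ins stayed out of totals. Genes were named by rule: the 9 members, pathway genes called in the average, ligands, Il11ra1 and Il31ra, the 5 genes most like Stat3, Socs3 and Il6st, and in cells Il31ra, Nppb and Sst beside Osmr. Cish, Ptpn11, Socs1, Socs2, Socs5, Socs7, Grb2, Cebpd, Pim1, Junb, Mcl1, Bcl2l1, Bcl3, Col1a2, Atf3 and Sprr1a fall outside it and were chosen after their values were seen. A gene of the ligand list is not reported here. Scripts were tested on simulated data. Alternatives used DESeq2 1.42.0, limma 3.58.1 (voom with quality weights), other scaling and filters, the CT010467.1 share, a replicate block and each library left out. At 1 month same-numbered libraries deviated together (correlations 0.109, 0.371 and 0.328 over 2365 genes), so the numbers may pair them there. The same correlations were -0.432, -0.241 and -0.016 at 8 months and -0.085, -0.061 and 0.078 at 12 months. Differently numbered libraries were not compared, so this check cannot decide whether the numbers mark pairs, and the main fit does not use them. Cells used had at least 100000 counts outside CT010467.1; a cell had a gene at 1 CPM or more.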

Additional observations from a re-analysis of the deposited data

Results flagged for a closer look

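Of 9 checks in the 8 intact 1-year cells, 2 found a highest cell far from the others; chance flags about 1 in 20 groups. Osmr was at 91.6 CPM in that cell, against 5.67 CPM in the next, a gap of 0.581 of the range on the log2(CPM + 1) scale. Il6ra was at 26.4 CPM in that cell, against 2.53 CPM in the next, a gap of 0.619 of the range on the same scale. Both values came from the same cell, replicate 8, which also held Il31ra at 140 CPM, Nppb at 31.005, Clcf1 at 53.2 and Jak2 at 23.5 CPM. Its Stat3 level, 44.3 CPM, was the lowest of the 8, and its Socs3 level was 0.160 CPM.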

How the results depend on the processing

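The number of libraries (3 a group), the uneven share of CT010467.1 and the shallow intact 12-month replicates 2 and 3 limit these results. Gal kept its direction and its call in all 26 alternatives. Socs3 averaged over ages kept its call in 14 of 26, Jak1 in 16, Stat3 at 12 months in 20 and Il6st at 12 months in 17; the cause was not tested. Of 8 genes, 2 were called on average and 2 at 12 months. ERCC scaling moved the median of all genes by 2.90 (log2) on average and by 5.36 at 12 months; it called 8 on average (94.9% of all genes), 8 at 12 months (96.2%), 6 across ages in intact neurons (85.5%), and 40 pathway genes. DESeq2 called 1 at 8 months (3.76%), 4 at 12 months (9.28%) and 6 pathway genes (10.9%); limma-voom called 5 pathway genes (8.75%) and 1 of the 8 across ages in injured neurons (8.85%). With no filter on low counts, 4 were called on average (6.04%), 1 at 1 month (0.968%), 1 at 8 months (2.32%), 4 at 12 months (3.29%), 1 in the interaction (1.35%), and 6 pathway genes. With the CT010467.1 covariate, 0 were called on average (0.141%), 0 at 12 months (0%), and 1 pathway gene. With only the libraries compared, 0 were called at 12 months (0.424%) and 0 across ages in intact neurons (0.0394%). Over 1 and 8 months, 0 were called. With the replicate block, 1 was called on average (2.31%) and 0 at 12 months (0.408%); 329 against 878 of all genes were called on average. At 1 month, where the numbers may pair libraries, 0 of the 8 were called in either fit, and 5 against 33 of all genes.

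Leaving out 1 library gave 0 to 2 of the 8 genes on average, where 3.84% to 9.92% of all genes were called. At 8 months it gave 0 to 1 (0.184% to 1.6%) and at 12 months 0 to 3 (0.506% to 7.03%). Across ages in intact neurons it gave 0 to 2 (1.73% to 11.5%), and on average 3 to 8 pathway genes. Reversed directions, each of a change not called in the main fit, were these. ERCC scaling gave Cntfr 2.81 on average, 2.43 at 8 and 4.34 at 12 months, Stat3 1.56 at 8 months, Jak2 1.51 at 8 and 5.36 at 12 months, and Osmr 4.42 at 12 months. Of these, that fit itself called Cntfr on average (adjusted p = 0.000907). At 12 months it called Cntfr (0.00462), Jak2 (0.00292) and Osmr (0.00596). It called 94.9% of all genes on average and 96.2% at 12 months. DESeq2 gave Osmr 0.0279 at 12 months. Limma-voom gave Cntfr 0.20 on average and 0.93 at 8 months, Il6st -0.39, Lifr -0.0178 and Jak2 0.0614 at 8 months, and Osmr 0.47 and Jak2 0.41 at 12 months. No filter gave Jak2 0.00638 at 8 months. The covariate gave Stat3 0.28 at 8 months, and Osmr 1.16 and Jak1 -0.53 at 12 months. The compared libraries alone gave Stat3 -0.00346 at 1 month. The block gave Cntfr 0.46 and Jak2 0.15 at 8 months, and Osmr 1.43 and Jak2 0.41 at 12 months. Over 1 and 8 months Stat3 was -0.0140 and Cntfr 0.0307.

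Leaving out 1 library also reversed directions, with these ranges over the libraries left out. At 1 month they were -0.23 to 0.14 for Stat3, -0.18 to 0.28 for Il6st, -0.0239 to 0.82 for Lifr, -0.0326 to 1.91 for Osmr and -0.0584 to 0.52 for Cntfr. At 8 months they were -0.28 to 0.0915 for Stat3, -0.62 to 0.61 for Il6st, -0.28 to 0.36 for Lifr, -0.58 to 0.99 for Cntfr and -0.39 to 0.64 for Jak2. At 12 months they were -0.79 to 8.54 for Osmr and -0.51 to 1.18 for Jak2, and on average -0.53 to 0.0398 for Cntfr. In cells, 28 of 36 shares stayed within their interval when thinned to 500000 counts and 8 were higher. Only cells with at least that many counts could be thinned, such as 8 of the 12 intact 1-month cells. The set of cells therefore changed too, which limits what the shares at low depth show.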
